A study of Sus scrofa with 12 samples.

Results

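The cytostatic cascade of the porcine oocyte was followed at the transcript level through 7 genes, chosen by name: MOS, MAP2K1, MAP2K2, MAPK3, RPS6KA1, RPS6KA2 and RPS6KA3. Each was matched to 1 Ensembl identifier among the 31908 listed in every library. The 12 libraries form 3 groups of 4 by the hours of culture in vitro (0h, 22h or 46h), which the series' description ties to the GV, Pre-MI and MII stages of meiosis (it writes the middle time as 24h, the labels 22h). The oocytes came from antral follicles of prepubertal gilts, were cultured as cumulus-oocyte complexes, and were denuded before lysis as pools of oocytes. The culture medium held EGF, PMSG, HCG and porcine follicular fluid; per the study's methods the complexes were washed in it before culture, so the 22h and 46h groups were exposed to these agents for the length of culture, and time and exposure cannot be told apart. The labels do not say whether the replicates came from separate collections, so p-values measure only the spread between these pools. The RNA was amplified with SMART-Seq2, in which reverse transcription is primed on the poly(A) tail, so the amount of an mRNA and the adenylation of its tail cannot be told apart here.

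MOS is a kinase that vertebrate oocytes make from stored mRNA as they mature. It phosphorylates the MEK kinases (MAP2K1 encodes MEK1, MAP2K2 encodes MEK2), which phosphorylate the ERK kinases (MAPK3 encodes ERK1), and these activate the RSK kinases of the RPS6KA genes. The cascade is known for holding the egg in arrest at metaphase II until fertilization. What was measured is mRNA, not kinase activity.

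The values are FPKM, fragments relative to the length of the transcript and to library size, a scale per length on which genes are set side by side here. The order and the shares between genes are those of the listed values, since some widely used genes are also listed near 0, as given below. Total FPKM was 697468 to 802184 per library, and the number of reads is unknown, so no counting interval is given. The share of FPKM taken by mitochondrially encoded protein genes lay between 1.79% and 3.76% in the 0h libraries, between 8.06% and 12.02% in the 22h libraries, and between 12.79% and 16.69% in the 46h libraries. All 9 matched oocyte markers, such as ZP3 and GDF9, exceeded 1 FPKM in at least 1 library of each stage, though the mean of ZAR1 at 46h was 0.703 FPKM. Their levels did not hold: 9 of 9 fell at 46h against 22h (median log2 change -2.91) and 8 of 9 at 46h against 0h (median -3.56). Of all 7013 genes tested, 32.6% and 39.1% fell in these comparisons by the same thresholds. Under median-of-ratios scaling 8 and 7 of the 9 markers fell, as they did under quantile normalization. ZP3, for example, went from 2967 ± 1188 FPKM at 0h through 4949 ± 2307 at 22h to 95.5 ± 69.7 at 46h (SD, n = 4). Of 18 matched cumulus and granulosa markers, VCAN and STAR alone exceeded 1 FPKM, and the sum of the other 16 was 0.03 to 1.13 FPKM in any library. VCAN rose at 46h against 0h by 1.18 on the log2 scale, and its part in the results below was not tested.

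The 7 transcripts differed widely in level. MOS held ranks 46 to 131 among all genes of its library at 0h and 22h and ranks 101 to 189 at 46h. MAP2K1 ranked between 648 and 1750 and RPS6KA3 between 3708 and 6789. At each stage MOS lay above MAP2K1, and MAP2K1 above RPS6KA3, with no overlap between libraries. Below them the order was less firm. RPS6KA3 and MAP2K2 overlapped at 0h, MAP2K2 and RPS6KA1 overlapped at 22h and 46h, and MAPK3 and RPS6KA2 were at or near 0 throughout. MOS, MAP2K1 and RPS6KA3 averaged 1 FPKM or more across libraries and so entered the fit of 7013 genes. The other 4 members did not.

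**Figure D1:**
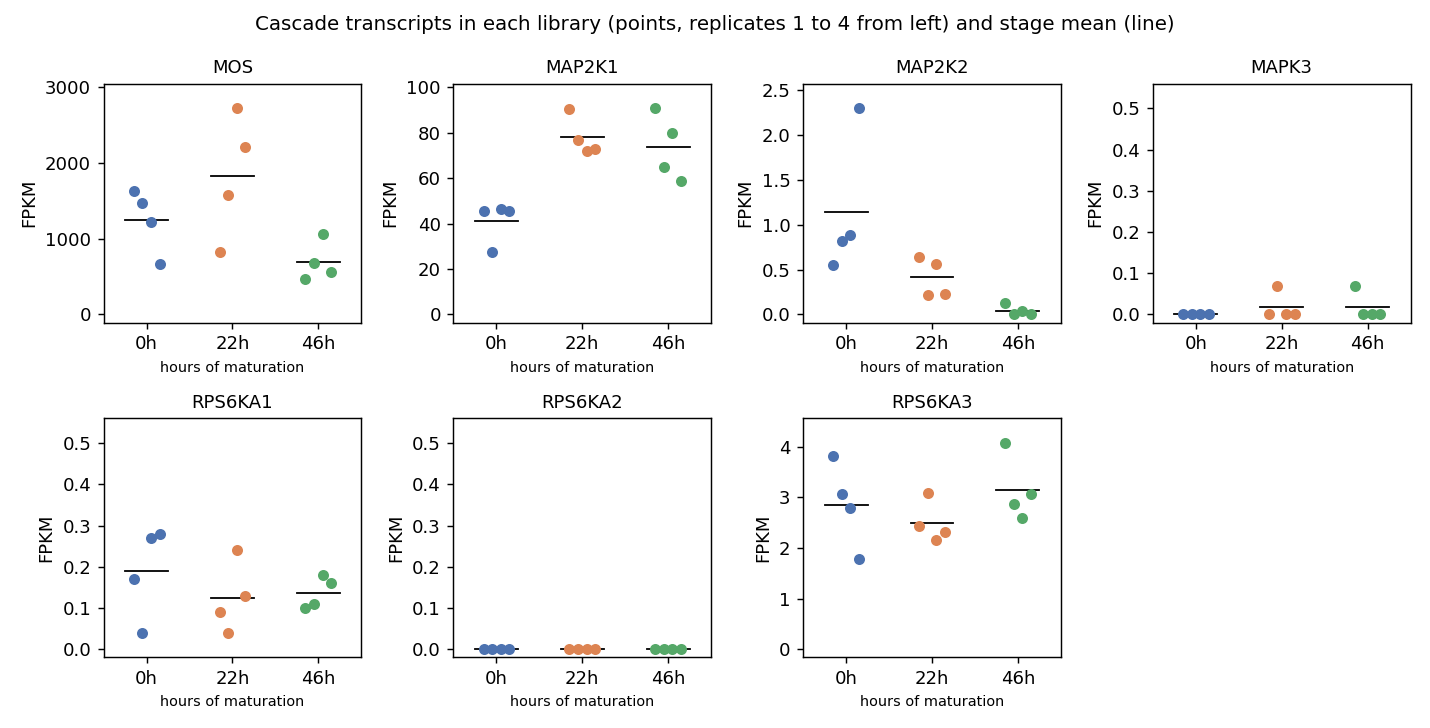
FPKM (vertical axis, linear) of the 7 cascade members at 0h, 22h and 46h (horizontal axis), with 1 point per library and a line at the mean of 4. MAP2K1 sits between 27.31 and 46.67 FPKM at 0h and at 58.9 FPKM or more in every later library, while MAP2K2 moves the other way and RPS6KA2 is listed at 0 in all 12.

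The 3′ ends of the members in the fit are shown because the cascade is known for translation from stored, tail-regulated mRNA and because the libraries were primed on the tail. They were read from the RefSeq annotation of Sscrofa11.1, with 1 transcript per gene. Capitals mark the polyadenylation hexamer nearest the transcript end (AATAAA or ATTAAA, searched on the transcript strand), or the cytoplasmic polyadenylation element (CPE; TTTTAT or TTTTAAT, searched in the 100 bases before that hexamer).
MOS, hexamer, chr4:75740728-75740757 (+): ggatttttagaaAATAAAgttaccaaaaac
MAP2K1, hexamer, chr1:164469278-164469307 (+): aactcttattctAATAAAtacactatcaaa
MAP2K1, CPE, chr1:164469240-164469269 (+): tccttttaccaTTTTAATccagatatttaa
RPS6KA3, hexamer, chrX:16452401-16452422 (-): aataaagtttcgAATAAAtgca

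MOS has 1 exon of 1675 bases, with a 3′ UTR of 464 bases whose last hexamer starts 337 bases before the annotated end. No CPE of these letters stood in the window of MOS or RPS6KA3, which says only that the letters are not there. In MAP2K1 a TTTTAAT ended 32 bases before the hexamer, which itself starts 24 bases from the end. Of 18394 genes with an annotated 3′ UTR, 80.5% held a hexamer, and 16.6% of those held a CPE in the window, which is the background for the match in MAP2K1. Among the members under the filter, RPS6KA2 also held one, a TTTTAT 66 bases before its hexamer, whereas MAP2K2, MAPK3 and RPS6KA1 held none. Read on the transcript strand alone, no window of 50 bases of any member's transcript occurred in the transcript of another gene, paralogs included. The exon bases that MAP2K1 shares with a gene on the opposite strand are given below.

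MOS, the kinase at the head of the cascade (chr4:75739402-75741076), was the most abundant member in every library. Its level was 1634, 1477, 1217 and 669 FPKM in replicates 1 to 4 of 0h. At 22h the replicates gave 822, 1573, 2721 and 2208 FPKM. At 46h they gave 465, 681, 1060 and 564 FPKM. The stage means were 1249 ± 423, 1831 ± 820 and 692 ± 260 FPKM (SD, n = 4 each). Of the 46h libraries, 3 lay below every 22h library, and replicate 3 of 46h overlapped with replicate 1 of 22h.

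MOS fell at 46h against 22h by 1.34 on the log2(FPKM + 1) scale (SE 0.373, 95% interval -2.14 to -0.54, limma adjusted p = 0.00878), where the median of all genes was -0.26 and that of the 9 oocyte markers -2.91; the part of that wider fall in the MOS value was not tested. Under median-of-ratios scaling, which moves that median to 0.02, the difference was -0.98 and missed the threshold (limma adjusted p = 0.0551). At 22h against 0h the difference was 0.50 (SE 0.373, interval -0.31 to 1.30, limma adjusted p = 0.333) and did not pass; with single libraries left out it ran from 0.22 to 0.84. The 46h libraries were lower than the 0h libraries by a log2 difference of -0.84 (interval -1.64 to -0.04), which did not pass (limma adjusted p = 0.0626). Under median-of-ratios scaling it was -0.44 (limma adjusted p = 0.349), and under quantile normalization -0.90 (limma adjusted p = 0.019), which passed. That last call turned on single libraries too. On FPKM it passed without replicate 4 of 0h, the lowest MOS library of that stage (-1.12, limma adjusted p = 0.0134), without replicate 3 of 46h (-1.07, limma adjusted p = 0.0291) and without replicate 1 of 22h, which enters only through the shared spread (-0.84, limma adjusted p = 0.0284).

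MAP2K1, which encodes MEK1 (chr1:164381892-164469313), was 45.54, 27.31, 46.67 and 45.37 FPKM in the 0h replicates. The 22h replicates gave 90.48, 76.78, 71.88 and 72.86 FPKM, and the 46h replicates 90.8, 65.12, 79.86 and 58.9 FPKM. Every 22h and 46h library exceeded every 0h library, and the later stages overlapped each other. MAP2K1 rose at 22h against 0h by 0.93 on the log2 scale (SE 0.199, interval 0.50 to 1.36, limma adjusted p = 0.00316). It stayed higher at 46h against 0h, by 0.83 (SE 0.199, interval 0.41 to 1.26, limma adjusted p = 0.00216). Between 22h and 46h the difference was -0.10 (interval -0.52 to 0.33, limma adjusted p = 0.72), and its sign turned to 0.26 under median-of-ratios scaling and 0.19 under quantile normalization. With the mitochondrially encoded genes taken out of the scaling, MAP2K1 at 46h against 0h was 0.93 higher and MOS differed by -0.76. MAP2K1 shares 1050 exon bases with SNAPC5 on the opposite strand, and the protocol keeps no strand; SNAPC5 itself was listed between 0 and 0.25 FPKM.

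MAP2K2, which encodes MEK2 (chr2:74626739-74651352), was low and went the other way. At 0h it was 0.55, 0.82, 0.89 and 2.3 FPKM. At 22h it was 0.64, 0.22, 0.56 and 0.23 FPKM, and at 46h 0.13, 0, 0.04 and 0 FPKM. The 46h libraries lay below all 0h and all 22h libraries, and the earlier stages overlapped.

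Between 0h and 46h the log2(FPKM + 1) of MAP2K2 differed by -0.98 (exact two-sided permutation test, p = 0.0286, the smallest that 4 against 4 libraries allow). With a pseudocount of 0.1 in place of 1, the same difference was -3.03. Between 22h and 46h it was -0.43 (exact p = 0.0286; -1.83 with a pseudocount of 0.1), and between 0h and 22h -0.55 (exact p = 0.0857; -1.20). The call between 22h and 46h was lost without replicate 2, 3 or 4 of 46h (-0.41, -0.43 and -0.41, exact p = 0.0857 each). These are 3 of 9 such tests on members under the filter. In a limma fit of all genes with no filter, the adjusted p was 0.0025 at 46h against 0h, 0.191 at 46h against 22h and 0.105 at 22h against 0h. That fit called 3266 of 17633 genes lower and 1131 higher at 46h against 0h. Genes at 1 FPKM or more numbered 6939 to 7895 per library at 0h and 5819 to 6076 at 46h. The part of this wider loss in the MAP2K2 values, and in the ratios below, was not tested.

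Within each library MAP2K1 thus made up nearly all MEK transcript. Its share of the summed FPKM of both genes was 97.3% ± 1.58 at 0h and 99.5% ± 0.255 at 22h (SD, n = 4). At 46h MAP2K2 held at most 0.143% of that sum in any library. The difference of log2(FPKM + 1) between MAP2K1 and MAP2K2 was 4.33 ± 0.53 at 0h, 5.81 ± 0.19 at 22h and 6.14 ± 0.20 at 46h. Its mean at 22h exceeded that at 0h by 1.48 (2.14 with a pseudocount of 0.1) and its mean at 46h exceeded that at 0h by 1.81 (3.88 with a pseudocount of 0.1), with no overlap of libraries in either case (exact two-sided permutation p = 0.0286 each, 0.172 after Benjamini-Hochberg adjustment over the 12 paralog comparisons made). The change of 0.33 from 22h to 46h did not pass (exact p = 0.0857, adjusted p = 0.343), but was 1.73 with a pseudocount of 0.1 and 0.63 under median-of-ratios scaling (exact p = 0.0286 each). With 4 against 4 libraries, a p of 0.0286 in few of the 12 comparisons cannot pass the adjustment.

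**Figure D2:**
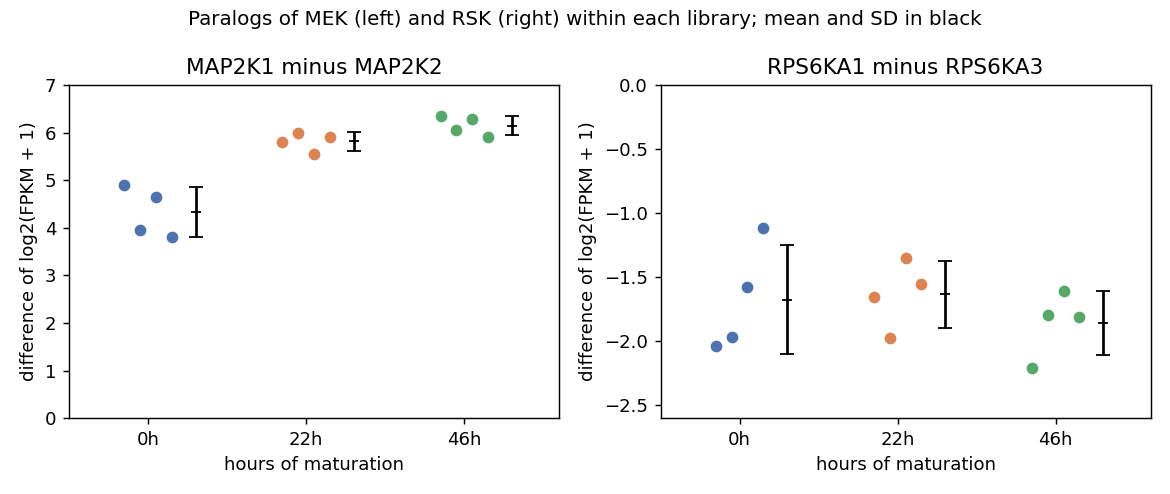
Difference of log2(FPKM + 1) between paralogs within each library (vertical axis) at 0h, 22h and 46h (horizontal axis), with 1 point per library and the mean with its SD in black, for MAP2K1 minus MAP2K2 (left) and RPS6KA1 minus RPS6KA3 (right). The MEK difference is 4.33 at 0h and 6.14 at 46h, while the RSK difference stays between -1.86 and -1.63 on average.

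MAPK3, which encodes ERK1 (chr3:18291444-18299410), was listed at 0 in 10 of 12 libraries, and at 0.07 FPKM in replicate 2 of 22h and in replicate 1 of 46h. A low or 0 value in these files need not mean that the transcript was missing, since ACTB, a cytoskeletal gene that cells use widely, was also listed at 0 in 2 libraries and at most at 0.7 FPKM, and POLR2A, a subunit of RNA polymerase II, at 0.06 to 0.54 FPKM.

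Of the RSK kinases, RPS6KA3 (RSK2, on chrX:16452401-16576854) was the one with a mean over 1 FPKM. It was 3.81, 3.06, 2.78 and 1.78 FPKM at 0h, then 2.44, 3.09, 2.16 and 2.31 FPKM at 22h. At 46h it was 4.07, 2.86, 2.6 and 3.07 FPKM. All stages overlapped. The log2 differences were -0.12 at 22h against 0h (interval -0.51 to 0.27), 0.24 at 46h against 22h (-0.15 to 0.63) and 0.12 at 46h against 0h (-0.27 to 0.51), with limma adjusted p of 0.645, 0.296 and 0.588. Under quantile normalization the 46h values were higher than those of 22h by 0.75 and of 0h by 0.80, both past the thresholds (limma adjusted p = 0.0104 and 0.00486).

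RPS6KA1 (RSK1, chr6:83905124-83947189) was 0.17, 0.04, 0.27 and 0.28 FPKM at 0h, 0.09, 0.04, 0.24 and 0.13 FPKM at 22h, and 0.1, 0.11, 0.18 and 0.16 FPKM at 46h. Its stages overlapped, with exact two-sided permutation p of 0.4, 0.8 and 0.4 for 22h against 0h, 46h against 22h and 46h against 0h. RPS6KA2 (RSK3, chr1:2203825-2522604) was listed at 0 in all 12 libraries, so no change could be computed for it, and the ratios that involve it are the other gene's own change. Counting RPS6KA6 (RSK4) as well, RPS6KA3 took 86.8% ± 9.55 of RSK transcript at 0h, 89.2% ± 2.7 at 22h and 91.6% ± 3.32 at 46h (SD, n = 4). The RPS6KA1 to RPS6KA3 difference changed by 0.04, -0.22 and -0.18 in the same order of comparisons (exact p = 0.886, 0.286 and 0.514).

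**Figure D3:**
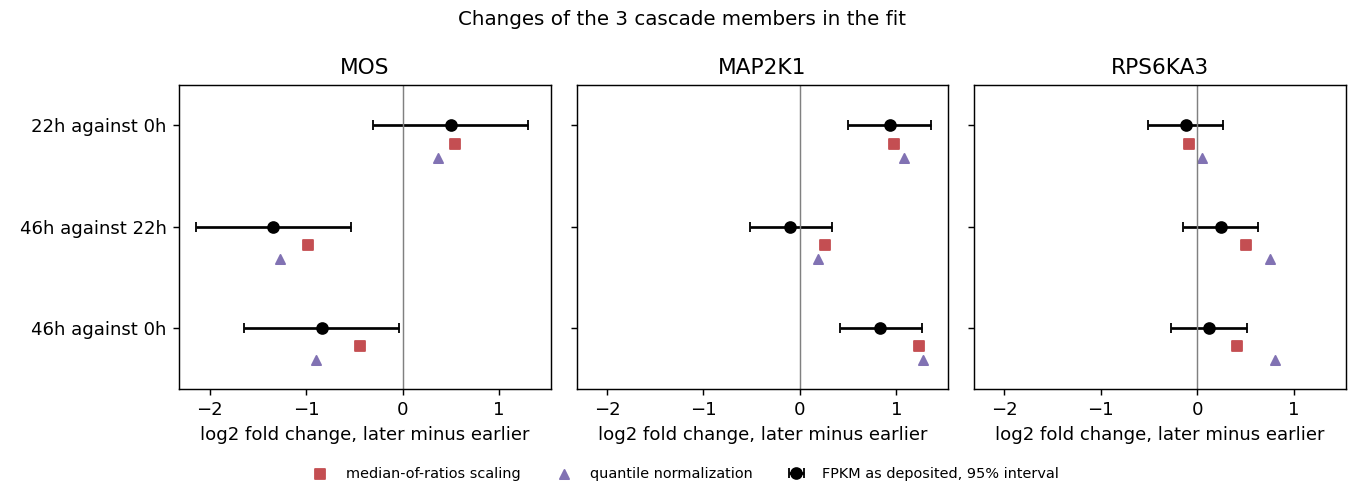
Log2 fold changes (horizontal axis, later minus earlier stage) of MOS, MAP2K1 and RPS6KA3 in the 3 comparisons, with the 95% interval for FPKM as deposited (black) and the point value under median-of-ratios scaling (square) and quantile normalization (triangle). The MAP2K1 intervals against 0h lie above 0, from 0.50 to 1.36 and from 0.41 to 1.26, and the MOS interval at 46h against 22h lies below 0.

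Of the 3 members in the fit, 1 passed in each comparison. MAP2K1 was the one higher at 22h against 0h, where 26.7% of all genes tested passed (7.84% of all genes higher and 18.9% lower). MOS was the one lower at 46h against 22h, where 42.4% of all genes passed (9.87% of all genes higher and 32.6% lower). MAP2K1 was again the one higher at 46h against 0h, where 55.9% of all genes passed (16.8% of all genes higher and 39.1% lower). A count of 1 in 3 is thus near the background in each comparison, and says nothing particular about the cascade as a group. The balance of all calls depends on scaling: at 46h against 22h, 23.3% of the calls were higher on FPKM, 44.0% under median-of-ratios scaling and 59.5% under quantile normalization. At 46h against 0h these shares were 30.1%, 46.9% and 61.7%. At 22h against 0h they were 29.4%, 34.7% and 48.2%, with 39.5% on TPM without mitochondrially encoded genes.

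The counts of the lists below depend on scaling too, and are given on FPKM, with those under median-of-ratios scaling and quantile normalization where they differ. The share of all genes tested that were called higher moves with them: at 46h against 0h it was 16.8% on FPKM, 29.2% under median-of-ratios scaling and 41.0% under quantile normalization. The same shares were 7.84%, 9.51% and 14.9% for 22h against 0h, and 9.87%, 20.1% and 28.1% for 46h against 22h. A larger count of rises under a scaling is thus not by itself a result about a list. Falls move too: in the same order of scalings, 2743, 2312 and 1789 of 7013 genes were called lower at 46h against 0h. These counts were 1323, 1255 and 1126 for 22h against 0h, and 2283, 1793 and 1340 for 46h against 22h. Some genes entered the fit through their early level alone, with a stage mean under 1 FPKM at 46h: LAMTOR2, DUSP5, DUSP10, CDK1, GSK3B, ZAR1, MAP2K3, MAPK7, NLK and MAPKAPK2. Such genes could hardly do other than fall, so the counts of falls are descriptions. Matched genes under the filter are in no count. In the order given below, the lists had 10 of 17, 7 of 14, 11 of 22, 9 of 13, 9 of 13 and 12 of 19 matched genes in the fit.

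Upstream of the MEK kinases, the receptor and RAS list had 10 of its 17 matched genes in the fit. At 46h against 0h, 4 of these rose and 0 fell in limma (6 and 0 at an unadjusted p under 0.05). Their median was 0.51 against -0.25 for all genes. The 0 falls leave out the genes under the filter. Of those, HRAS went from a mean of 0.677 at 0h to 0 FPKM at 46h, and IGF1R from 0.605 to 0.212 FPKM. EGFR alone had no lower mean (0.0075 and 0.01 FPKM). NRAS, a RAS GTPase, went from 21.4 ± 8.08 to 60.8 ± 12.1 FPKM (log2 1.52, limma adjusted p = 0.000218). SOS2, an exchange factor that loads RAS with GTP, rose by 0.88, from 4.57 ± 1.31 to 9.14 ± 1.45 FPKM. The rises were 6 under median-of-ratios scaling and 8 under quantile normalization, where the share of all genes called higher was larger too. NF1 was among the rises under both scalings and RASA1 under quantile normalization, and both of these genes encode proteins that switch RAS off. At 22h against 0h, 2 of the 10 had risen (3 and 6 under these scalings), and at 46h against 22h, 1 rose (3 and 3, with NF1 among them).

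Among the other kinases and scaffolds, 7 were in the fit, and 3 rose and 2 fell at 46h against 0h. RPS6KA5, which encodes the ERK-activated kinase MSK1, rose by 0.90, and LAMTOR3, which encodes the MEK-binding scaffold MP1, rose by 0.82. LAMTOR2, the partner of LAMTOR3 on the late endosome, fell by 3.07, from 8.72 ± 3.74 to 0.0975 ± 0.0741 FPKM, and KSR2, a scaffold of MEK, fell by 0.84, a call lost under median-of-ratios scaling (-0.55) and quantile normalization (-0.15). Under these scalings the list had 4 rises and 1 fall, and 5 rises and 1 fall. At 22h against 0h the list had 1 rise and 1 fall, with 2 rises and 1 fall under quantile normalization. At 46h against 22h it had 2 falls, but 2 rises and 2 falls under median-of-ratios scaling and 2 rises and 0 falls under quantile normalization.

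Of the phosphatases and inhibitors of MAP kinase signalling, 11 were in the fit, and 5 rose and 3 fell at 46h against 0h (5 and 2 under median-of-ratios scaling, 6 and 1 under quantile normalization), with a list median of 0.56. SPRY1, a Sprouty inhibitor of RAS signalling, went from 9.56 ± 1.25 to 24.2 ± 2.23 FPKM (log2 1.26, limma adjusted p = 6.48e-06). SPRED2, of the related Spred family, rose by 1.07, and PPP2CB, a catalytic subunit of the phosphatase PP2A, rose by 1.02. DUSP5, a nuclear phosphatase of ERK, first rose at 22h against 0h by 0.74 and then fell, to -2.75 at 46h against 0h, from 8.05 ± 1.97 to 0.325 ± 0.0569 FPKM. Of the 3 falls, that of DUSP5 alone was of a phosphatase specific to ERK. DUSP16 and DUSP10, which act mainly on the JNK and p38 kinases, fell by 0.90 and by 0.61. Both calls were lost under quantile normalization (-0.22 and 0.15), and that of DUSP10 under median-of-ratios scaling as well (-0.43). At 22h against 0h, 3 of the 11 rose, and at 46h against 22h, 2 rose and 3 fell, against 4 and 1 under either scaling.

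The list of ERK and RSK targets counted 9 genes in the fit. It also holds CDK1, the kinase partner of cyclin B1, and EIF4E, which MKNK1 phosphorylates, so not every gene in it is a direct target. At 46h against 0h, 3 genes of the list rose and 4 fell (3 and 3 under median-of-ratios scaling, 5 and 3 under quantile normalization). CDK1 and EIF4E were both among the falls on FPKM. In limma, 0 genes of the list passed at 22h against 0h, while 1 was higher and 1 lower at an unadjusted p under 0.05, and quantile normalization called 1. At 46h against 22h, 4 fell and 0 rose on FPKM (2 were higher at an unadjusted p under 0.05), but 4 rose and 3 fell under median-of-ratios scaling and 3 rose and 3 fell under quantile normalization. CCNB1, which encodes cyclin B1, went from 615 ± 293 to 1193 ± 99.2 FPKM (log2 1.11, limma adjusted p = 0.0124), whereas CDK1, its kinase partner, fell by 6.26 on the log2 scale, to 0.275 ± 0.0526 FPKM at 46h, after 84.7 ± 13.5 FPKM at 22h. MKNK1, an ERK-activated kinase of the translation factor eIF4E, rose by 0.84, and CDK2AP2 rose by 0.65, a call lost on TPM (0.54). GSK3B, a kinase of glycogen and Wnt signalling, fell by 1.82, and ITPR1, the calcium-release receptor of the egg, fell by 1.60.

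The proteins that act on the translation of MOS and other stored mRNAs counted 9 in the fit. At 46h against 0h, 3 fell and 0 rose in limma (4 and 1 at an unadjusted p under 0.05). ZAR1, an oocyte RNA-binding protein, went from 140.0 ± 60.6 through 23.9 ± 12.3 to 0.703 ± 0.312 FPKM (log2 -6.30). CPSF3, the endonuclease of 3′ end processing, fell by 1.28, and PUM2, a repressor of stored mRNAs, fell by 0.98, a call lost under quantile normalization (-0.29). The list had 1 rise and 3 falls under median-of-ratios scaling, and 2 rises and 2 falls under quantile normalization. At 22h against 0h, 1 rose and 2 fell, and at 46h against 22h, 1 rose and 2 fell. The parallel MAP kinase modules, for p38, JNK and others, counted 12 in the fit, with 1 rise and 6 falls at 46h against 0h, but 3 rises and 5 falls under median-of-ratios scaling and 4 of each under quantile normalization. MAPK6, an atypical kinase also named ERK3, rose by 0.92. MAPK13, a p38 isoform, fell by 4.99, from 71.4 ± 8.55 to 1.36 ± 0.776 FPKM, MAP2K3, which activates p38, fell by 1.83, and MAPKAPK2, a p38 target, fell by 1.71. These modules had 3 falls at 22h against 0h (1 rise and 3 falls under either scaling), and 1 rise and 4 falls at 46h against 22h (2 and 4 under median-of-ratios scaling, 3 and 3 under quantile normalization).

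**Figure D4:**
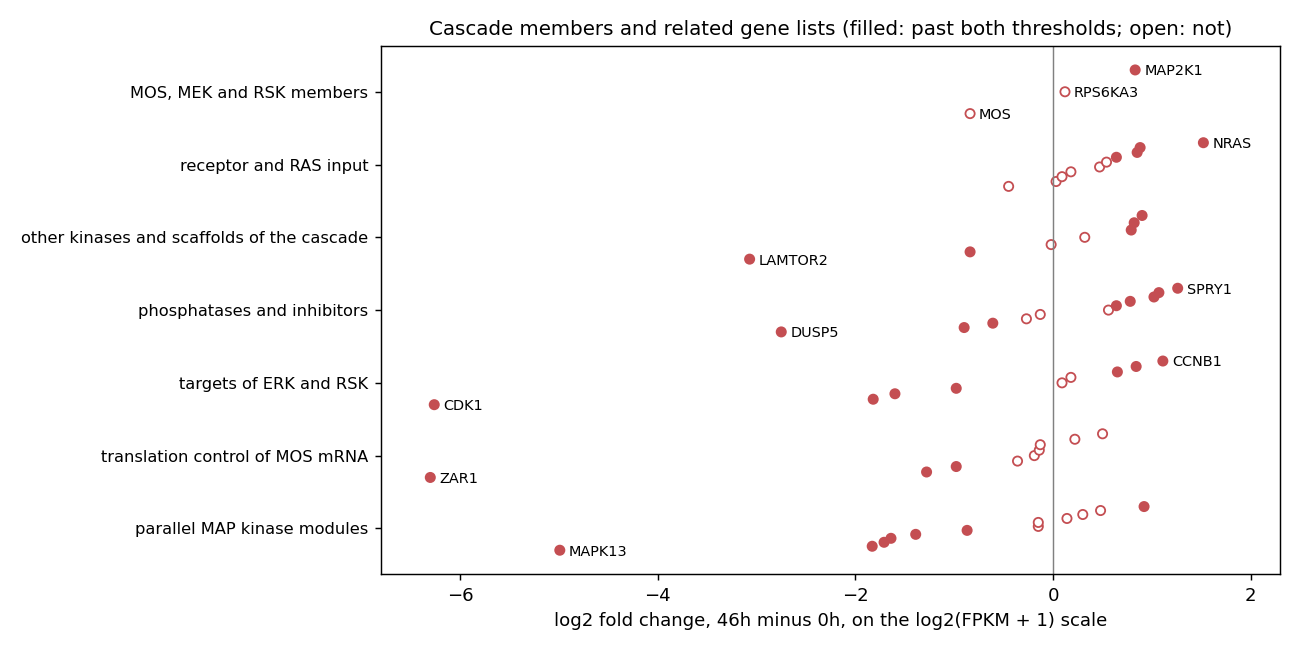
Log2 fold change at 46h against 0h (horizontal axis, on the log2(FPKM + 1) scale) of each gene in the fit, by list (rows), with filled points past both thresholds. The 4 called genes of the receptor and RAS list are all higher, and the parallel modules have 1 called gene higher and 6 lower on FPKM, against 4 of each under quantile normalization.

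Across the 12 libraries, the named genes whose log2(FPKM + 1) followed MOS most closely were MARS2, EIF4A1 and TSPAN3 (Pearson r of 0.949, 0.948 and 0.944 among 6111 genes compared). Their stage means were highest at 22h, as was that of MOS, with 191, 269 and 111 FPKM for TSPAN3. The rise of MOS itself at 22h against 0h did not pass. Those most like MAP2K1 were STARD7, CGGBP1 and SS18 (r of 0.991, 0.978 and 0.976). STARD7 went from 10.6 to 22.4 and 21.2 FPKM, close to the course of MAP2K1. For RPS6KA3 they were ATOSA, RTKN2 and SNX6 (r of 0.849, 0.815 and 0.806). These values describe likeness only, since the libraries share 3 stages and a scaling to their own totals. The genes were picked by their correlation in these same libraries, so a like course over the stages follows from the choice.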

How the data were processed

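The authors trimmed reads with Trim Galore, aligned them to Sscrofa11 with STAR, and deposited FPKM per gene from RSEM, to 2 decimals. Counts were not used here, so the count-based test of the study's methods was not repeated. FPKM is relative to each library, and low genes carry unknown counting error. Symbols came from the RefSeq table of Sscrofa11.1, as did coordinates; the minor version used by the authors is not given in the sources used here. The symbols named 15029 identifiers.

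The 7013 genes that averaged 1 FPKM or more were put on the log2(FPKM + 1) scale, and a limma 3.58.1 model (R 4.3.3, eBayes with trend) with stage as its one factor was fitted to the 12 libraries together. P-values are two-sided and Benjamini-Hochberg adjusted across the whole fit, and a gene passed at an adjusted p under 0.05 with a fold change over 1.5. A fold change on this scale understates the change of low genes. Members under the filter and paralog ratios were compared by exact permutation of 4 against 4 libraries (70 arrangements), and the p-values of members under the filter are unadjusted. On simulated data of 46h against 0h with 7013 genes, 72 of 100 genes changed by 1 on the log2 scale were called, and 96 of 100 changed by 2, with 5 unchanged genes called. Python 3.11.15, numpy 2.4.6, pandas 2.3.3, statsmodels 0.14.6 and matplotlib 3.10.9 were used for the rest.

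The members and lists were chosen with earlier results of these data known. The genes named from the lists are, for each list, those past the thresholds at 46h against 0h with the 3 largest rises and the 3 largest falls. Some of the genes this rule takes are not reported here. SNAPC5, ACTB and POLR2A were named after their values were seen. DUSP7, PEBP1, FBXO43, RPS6, ELK1, CPSF1, DAZL, MAPK4, CYP19A1, FOXL2, NPM2 and DPPA3 had no matching symbol and were not analysed here. Alternatives covered the pseudocount, the filter, 4 other scalings, the stages in the fit, the eBayes trend, a replicate block, the fold threshold and each library left out.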

Additional observations from a re-analysis of the deposited data

Results flagged for a closer look

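Of the groups of 4 libraries formed by the 7 members at 3 stages, 17 had any range, and 3 of these held a library far from the others by Dixon's ratio. MAP2K1 in replicate 2 of 0h was 27.31 FPKM, below the next lowest library of that stage at 45.37 FPKM; chance gives such a gap in about 1 of 20 groups. MAPK3 was 0.07 FPKM in replicate 2 of 22h and 0.07 FPKM in replicate 1 of 46h. The other libraries of both stages were listed at 0, so that any single value above 0 meets the criterion and the chance level does not apply.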

How the results depend on the processing

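MAP2K1 kept its direction and its call at 22h against 0h (0.75 to 1.08) and at 46h against 0h (0.65 to 1.27) under all alternatives tried, single libraries left out included. At 46h against 22h, where it was not called, its sign turned under median-of-ratios scaling (0.26) and quantile normalization (0.19). MOS at 46h against 22h passed in all but median-of-ratios scaling (-0.98), with which 0 members passed; quantile normalization gave 2 members, with RPS6KA3 at 0.75. With single libraries left out, it ran from -1.68 to -1.10. At 46h against 0h, MOS passed under quantile normalization (-0.90) and in a fit of those 2 stages (-0.84), was -0.44 under median-of-ratios scaling, and ran from -1.12 to -0.68 with single libraries left out. The members called there were 2 with no filter (MAP2K2 joined), 2 in the fit of those stages, 3 under quantile normalization (RPS6KA3 at 0.80) and 1 to 2 with single libraries left out. The genes called there were 2546 with a filter of 5 FPKM, against 3922, since fewer genes were tested.

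RPS6KA3 turned sign at 22h against 0h under quantile normalization (0.05) and ran from -0.03 to 0.24 at 46h against 0h with single libraries left out. MAP2K2 ran from -0.68 to -0.32 at 22h against 0h (past 0.05 without replicate 1 of 0h, exact permutation p = 0.0286) and from -0.49 to -0.35 at 46h against 22h, where it kept its call in 5 of 8 such runs, and at 46h against 22h missed 0.05 under quantile normalization (-0.34) and in limma with no filter, an alternative chosen after seeing the data (-0.43). RPS6KA1 reached 0.17 at 46h against 0h under quantile normalization and ran from -0.02 to 0.07 at 46h against 22h with single libraries left out. The MAP2K1 to MAP2K2 change at 46h against 22h was 1.73 with a pseudocount of 0.1 and 0.63 under median-of-ratios scaling, both with an exact permutation p of 0.0286. The RPS6KA1 to RPS6KA3 change at 22h against 0h was -0.19 with a pseudocount of 0.1 and ran from -0.08 to 0.23 with single libraries left out. The cause of these shifts was not tested.

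With a replicate block, the genes called were 1801, 2933 and 3894, and 1 member passed in each comparison; same-numbered libraries deviated together with correlations from -0.466 to 0.381, so the numbers were not taken as pairs. Depth is unknown, which limits every value under 1 FPKM, and 4 libraries per stage limit the exact tests.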
